A study of Mus musculus with 2 samples.

Results

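Apolipoproteins carry lipid outside cells and the efflux proteins load them with it. The genes described here are Apoe, Clu, Apod, Abca1, Abcg1, Lrp1, Nr1h2, Nr1h3, Pltp and Lpl, a list grouped by function and selected on earlier results of these libraries, the fold changes between their CPM values. They were found by symbol in the authors' gene table, where 9 of the 10 had values among 13281 genes, and Abcg1 was not analysed here. RNA came from 661W, an immortalized mouse line derived from cone photoreceptors, as 1 library of cells labelled 3xFlag-TRPM1 (called 3xF-TRPM1) and 1 library of cells labelled control vector (called empty vector). Both were stable populations made with the pBabe-Puro retrovirus, obtained and maintained by selection with puromycin. Both were grown under normal culture conditions, and no other drug is described for them. Whether puromycin was present when RNA was taken is not stated. The 3xF-TRPM1 cells carry human TRPM1, a cation channel of the TRPM family known from retinal bipolar cells and melanocytes, fused to a FLAG tag. The comparison asks which transcripts differ in cells that carry the added channel.

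Cells take up cholesterol in lipoproteins, free it in lysosomes and export the excess. Abca1 moves cholesterol and phospholipid across the plasma membrane onto lipid-poor apolipoproteins such as Apoe, Abcg1 adds lipid to particles already formed, and Pltp and Lpl remodel the particles outside the cell. The liver X receptors Nr1h3 (LXR alpha) and Nr1h2 (LXR beta) are nuclear receptors that sense oxysterols, pair with retinoid X receptors and switch on Abca1, Abcg1, Apoe, Pltp and Lpl. In the retina, Mueller glia and the pigment epithelium make much of the Apoe, and photoreceptors renew lipid-rich outer segment membranes throughout life.

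Values are CPM, the reads of a gene relative to library size as scaled by the authors, and the reads behind each value could be worked back because all values of a library are multiples of 1 step. Fold changes are log2 of 3xF-TRPM1 over empty vector with 0.5 CPM added to both values, which understates the change of genes with few reads. Brackets after a fold change give the 95% exact (Clopper-Pearson) interval of the log2 read ratio, which uses no added value and covers counting error only. A gene was called higher or lower when it differed at least 1.5-fold (0.58 on the log2 scale) and this interval left out 1-fold. With 1 library per group there is no replicate check, so no SD and no p-value is given, and every difference is between these libraries.

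The proximal promoters of Apoe, Pltp and Abca1 are shown because these genes are known targets of the liver X receptors, and that of Apod because it was called higher beside them. Each run holds the 200 bases before the annotated start on the strand of the gene, 5′ to 3′, from RefSeq on GRCm38.p6. Capitals mark the motifs found by the search described after them.
Apoe: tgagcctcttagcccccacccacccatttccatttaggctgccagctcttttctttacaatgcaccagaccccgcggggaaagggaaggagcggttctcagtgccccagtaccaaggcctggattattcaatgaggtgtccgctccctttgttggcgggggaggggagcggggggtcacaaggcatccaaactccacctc
Pltp: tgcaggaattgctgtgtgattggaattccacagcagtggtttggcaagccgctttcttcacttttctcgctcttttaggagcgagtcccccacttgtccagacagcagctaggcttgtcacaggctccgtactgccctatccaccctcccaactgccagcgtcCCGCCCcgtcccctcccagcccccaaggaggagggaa
Abca1: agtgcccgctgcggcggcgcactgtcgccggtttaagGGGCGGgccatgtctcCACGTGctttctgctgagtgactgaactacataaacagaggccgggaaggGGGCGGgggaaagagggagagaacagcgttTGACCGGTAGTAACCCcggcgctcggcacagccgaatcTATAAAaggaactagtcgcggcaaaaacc
Apod: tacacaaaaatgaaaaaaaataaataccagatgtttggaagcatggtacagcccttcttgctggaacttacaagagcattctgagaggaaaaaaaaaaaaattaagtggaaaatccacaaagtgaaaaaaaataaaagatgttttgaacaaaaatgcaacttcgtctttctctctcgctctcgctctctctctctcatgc
All of these genes lie on the minus strand. The Apoe run is chr7:19699189-19699388, the Pltp run chr2:164857709-164857908, the Abca1 run chr4:53159896-53160095 and the Apod run chr16:31314809-31315008.

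Windows of 300 bases, 250 before and 50 after the start, were found for 7 members among 32851 windows and searched on both strands. No window was found for Clu and Lpl, both called higher, or for Abcg1, so these genes were not searched. Apoe had 3 windows at different starts and Nr1h3 had 2, of which the window nearest to the 5′ end of the gene in GENCODE M21 was used for each. The start used for Nr1h3 lies inside the gene, and the other starts were not searched. The liver X receptor element was searched as AGGTCA, 4 bases, AGGTCA, and with up to 2 mismatches it was in 0 of the 7 members and in 3.02% of all windows. With up to 3 mismatches, a setting chosen after the sequences were seen, it was in Abca1 alone among the 7 members searched, and in 21.9% of all windows. The Abca1 match lay at bases -67 to -52 from the start on the opposite strand. The Abca1 window also held the GC box GGGCGG at 163 and 97 bases before the start, the E-box CACGTG at 147 and the TATA box TATAAA at 29. The GC box was in 3 members (Abca1, Pltp and Lrp1) and in 35.7% of all windows. TATAAA was in Abca1 and Pltp and in 13.6%, and the E-box in Abca1 and in 7.15%. In Pltp the TATAAA match began 37 bases after the start, outside the printed run, and not before it as in Abca1. The STAT motif (TTCNNNGAA) was found in Lrp1 and in 8.30% of all windows, and the heat shock motif (GAANNTTC) in Nr1h2 and in 7.86%. The sterol regulatory element (TCACNCCAC, 1.24% of all windows) and the AP-1 motif (TGACTCA, 5.20%) had 0 matches among the 7 members. The windows used for Apoe, Apod and Nr1h3 held none of these motifs, and no match overlapped another. Base composition differed widely, with 37.3% GC in the Apod window, 57.7% in Apoe, 59.0% in Pltp and 62.7% in Abca1, beside a median of 52.7% over all windows. A match describes letters in a window and is not evidence of binding. Sequence outside these windows was not searched, so a missing match does not show that a gene lacks the element.

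Of the 9 members with values, 6 were called higher in the 3xF-TRPM1 library, 0 were called lower and 3 were neither. Over all 13281 genes, 3.91% were called higher and 3.07% lower. Because the members were listed with these values known, nothing is read from the difference between those shares. The 6 were Apoe, Pltp, Abca1, Clu, Apod and Lpl, with fold changes between 1.79 and 2.32 after the added 0.5 CPM. The median log2 fold change of the 9 members was 0.91, beside 0.0093 over all genes. Lrp1, Nr1h2 and Nr1h3 lay under 1.5-fold, and Nr1h3 was the member with a log2 fold change below 0 (with total reads as scaling, Nr1h2 was at -0.03 too).

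**Figure D1:**
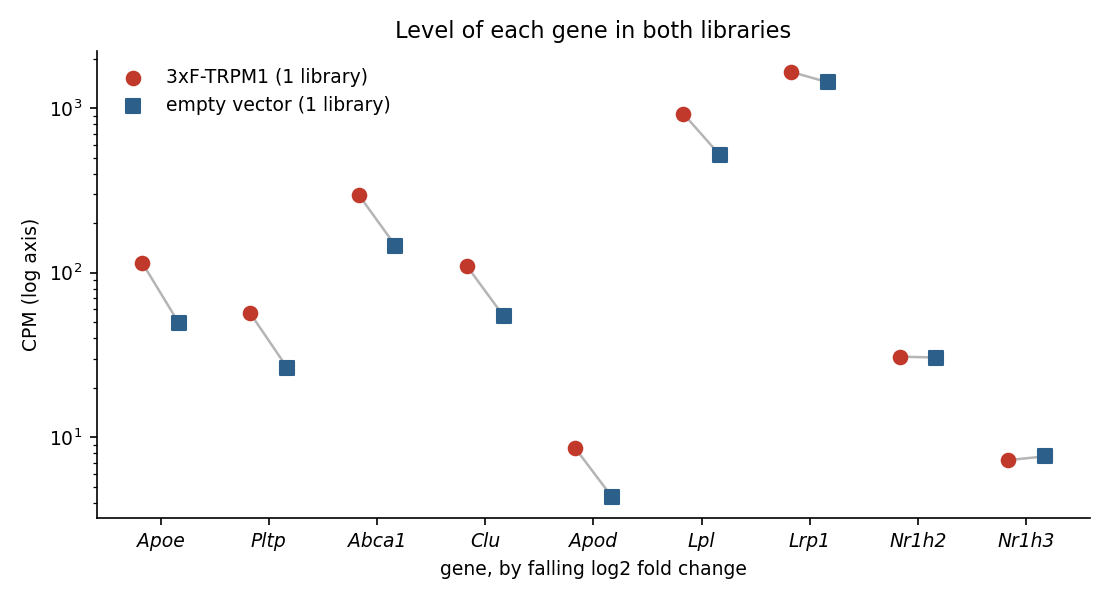
Level of each gene in CPM (log axis) in 3xF-TRPM1 cells (red circles) and in empty vector cells (blue squares), 1 library each, ordered by falling log2 fold change. The lines fall from left to right for Apoe to Lpl, where the 3xF-TRPM1 value is the higher one, as for Apoe at 115 CPM in 3xF-TRPM1 cells and 49.3 CPM in empty vector cells, and are nearly flat for Nr1h2 and Nr1h3.

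Apoe, the lipid carrier that lipoprotein receptors such as Lrp1 recognise, had the largest fold change of the members. It stood at 115 CPM (2028 reads) in 3xF-TRPM1 cells, against 49.3 CPM (824 reads) in empty vector cells. The log2 fold change was 1.21 [1.11, 1.34], and 64 of the 13281 genes, Apoe among them, had one as large. Its level lay at the 83.4th percentile of genes in the 3xF-TRPM1 library and at the 63.7th in the empty vector library. The gene spans 7:19696109-19699188 on the minus strand (GRCm38, GENCODE M21, as for all positions of members).

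Clu encodes clusterin, also called apolipoprotein J, a secreted chaperone that binds misfolded proteins and lipids. It had 110 CPM (1947 reads) in 3xF-TRPM1 cells and 54.5 CPM (912 reads) in empty vector cells. Its log2 fold change was 1.01 [0.90, 1.13], and its counting interval overlapped that of Apoe. The gene spans 14:65968483-65981547 on the plus strand.

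Apod encodes apolipoprotein D, which is a lipocalin and not related in structure to Apoe. It was the least abundant of the members called higher, with 8.62 CPM (152 reads) in 3xF-TRPM1 cells and 4.36 CPM (73 reads) in empty vector cells. With so few reads the interval around its log2 fold change of 0.91 was the widest of these genes [0.57, 1.40]. The lower bound lay just under 1.5-fold. The gene spans 16:31296192-31314808 on the minus strand.

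Abca1, the transporter that starts efflux, had 298 CPM (5256 reads) in 3xF-TRPM1 cells, against 146 CPM (2437 reads) in empty vector cells. Its log2 fold change was 1.03 [0.96, 1.10]. Its level lay at the 95.7th percentile of genes in the 3xF-TRPM1 library and at the 87.9th in the empty vector library. The carrier Apoe, its partner in efflux, and Abca1 were thus both more than 2-fold higher, 2.32-fold for Apoe and 2.04-fold for Abca1. Abca1 spans 4:53030787-53159895 on the minus strand.

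Pltp, the secreted protein that transfers phospholipid between lipoprotein particles, had 56.5 CPM (997 reads) in 3xF-TRPM1 cells and 26.5 CPM (443 reads) in empty vector cells. Its log2 fold change was 1.08 [0.93, 1.26]. The Pltp gene (2:164839518-164857711, minus strand) shares 495 exonic bases, 19.3% of its exonic length, with Ctsa on the opposite strand. Ctsa encodes a lysosomal protease and stood at 409 CPM in 3xF-TRPM1 cells and 349 CPM in empty vector cells, with a log2 fold change of 0.23. The sources used here do not say whether the counting used strand, so reads of Ctsa could be part of the Pltp value.

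Lpl, lipoprotein lipase, releases fatty acids from the triglyceride of lipoproteins and is best known from fat, muscle and macrophages. It was abundant in both libraries, with 926 CPM (16341 reads) in 3xF-TRPM1 cells and 517 CPM (8653 reads) in empty vector cells. The log2 fold change of 0.84 [0.80, 0.88] was the smallest of the 6 called members and had the narrowest counting interval of them. In both libraries Lpl was among the most abundant genes, at the 99.4th percentile in 3xF-TRPM1 cells and the 98.5th in empty vector cells. The gene spans 8:68880491-68907448 on the plus strand.

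Lrp1, the large endocytic receptor for Apoe-bearing particles and many other ligands, was the most abundant member, with 1657 CPM (29226 reads) in 3xF-TRPM1 cells and 1433 CPM (23968 reads) in empty vector cells. It had a log2 fold change of 0.21 [0.18, 0.23], a 1.16-fold difference. This lay outside counting error but under 1.5-fold. Lrp1 (10:127538161-127621148, minus strand) was therefore called neither higher nor lower.

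The liver X receptors were nearly level between the libraries. Nr1h2 had 30.9 CPM (545 reads) in 3xF-TRPM1 cells and 30.5 CPM (511 reads) in empty vector cells, with a log2 fold change of 0.02 [-0.16, 0.19]. Nr1h3 had 7.26 CPM in 3xF-TRPM1 cells and 7.65 CPM in empty vector cells, from 128 reads in each, with a log2 fold change of -0.07 [-0.44, 0.29]. Both intervals include 1-fold and both leave out a 1.5-fold difference in either direction. Nr1h2 spans 7:44549616-44553951 and Nr1h3 2:91184061-91202834, both on the minus strand. Nr1h3 shares 34 exonic bases, 1.35% of its exonic length, with the noncoding gene Gm13783 on the same strand, which was not analysed here.

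**Figure D2:**
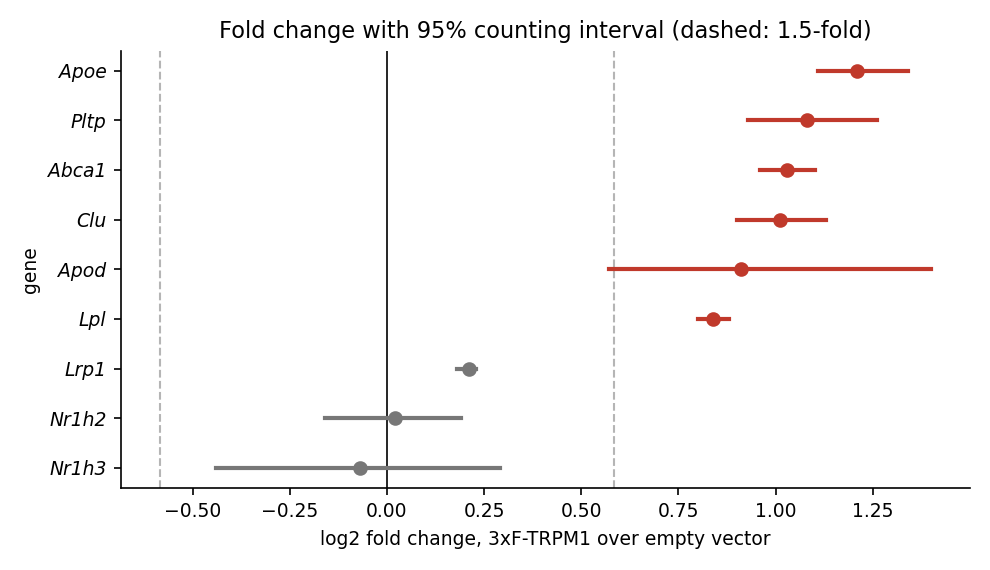
Log2 fold change of each gene, 3xF-TRPM1 over empty vector (points), with the 95% counting interval (bars). Red marks genes called higher and grey those called neither, and dashed lines mark 1.5-fold. Apoe to Lpl lie between 0.84 and 1.21, and Lrp1, Nr1h2 and Nr1h3 lie between -0.07 and 0.21.

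The members were next compared with each other as CPM per kilobase of the gene length in the deposited table. For all 9 members this length equals the annotated exonic bases of the gene, which can exceed the length of the transcript expressed. The order between genes depends on that length, and the intervals given cover counting error only. On this scale Lrp1 was highest, with 93.5 in 3xF-TRPM1 cells and 80.9 in empty vector cells. Lpl followed, with 88.4 in 3xF-TRPM1 cells and 49.4 in empty vector cells. Apoe was the highest carrier on this scale, at 53.8 CPM per kilobase in 3xF-TRPM1 cells (95% Poisson interval 51.5 to 56.2). It was at 23.0 in empty vector cells (21.5 to 24.7). Clu was at 32.1 CPM per kilobase in 3xF-TRPM1 cells and 15.9 in empty vector cells, which is 0.597 of the Apoe level in 3xF-TRPM1 cells and 0.688 of it in empty vector cells. Abca1 had 28.8 CPM per kilobase in 3xF-TRPM1 cells and 14.1 in empty vector cells. Pltp had 22.1 CPM per kilobase in 3xF-TRPM1 cells and 10.3 in empty vector cells.

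The lower end of the order held the receptors and Apod. Nr1h2 stood at 9.21 CPM per kilobase in 3xF-TRPM1 cells and 9.11 in empty vector cells, which was 3.19 times the level of Nr1h3 in 3xF-TRPM1 cells and 2.99 times it in empty vector cells. Apod had 3.34 CPM per kilobase in 3xF-TRPM1 cells (2.83 to 3.92) and 1.69 in empty vector cells (1.33 to 2.13). Nr1h3 had 2.89 in 3xF-TRPM1 cells (2.41 to 3.43) and 3.04 in empty vector cells (2.54 to 3.62). In the 3xF-TRPM1 library, Apod and Nr1h3 were the only neighbours in the order whose counting intervals overlapped. In the empty vector library Apod was the lowest member, under Nr1h3, and the neighbours whose intervals overlapped were Pltp and Nr1h2. Summed over the 9 members, the level was 3210 CPM in 3xF-TRPM1 cells (0.317% of the reads of listed genes) and 2269 CPM in empty vector cells (0.231%), with Lrp1 and Lpl making up most of it.

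Set among all genes, the 6 called members lay between the 98.4th and 99.5th percentile of log2 fold change. Lrp1 lay at percentile 79.5, Nr1h2 at percentile 51.2 and Nr1h3 at percentile 35.9. In level the members ranged from the 23.6th percentile (Nr1h3) to the 99.8th (Lrp1) in 3xF-TRPM1 cells and from the 16.7th (Apod) to the 99.7th (Lrp1) in empty vector cells. The members called higher were thus found at low (Apod), middle (Pltp) and high (Lpl) abundance.

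**Figure D3:**
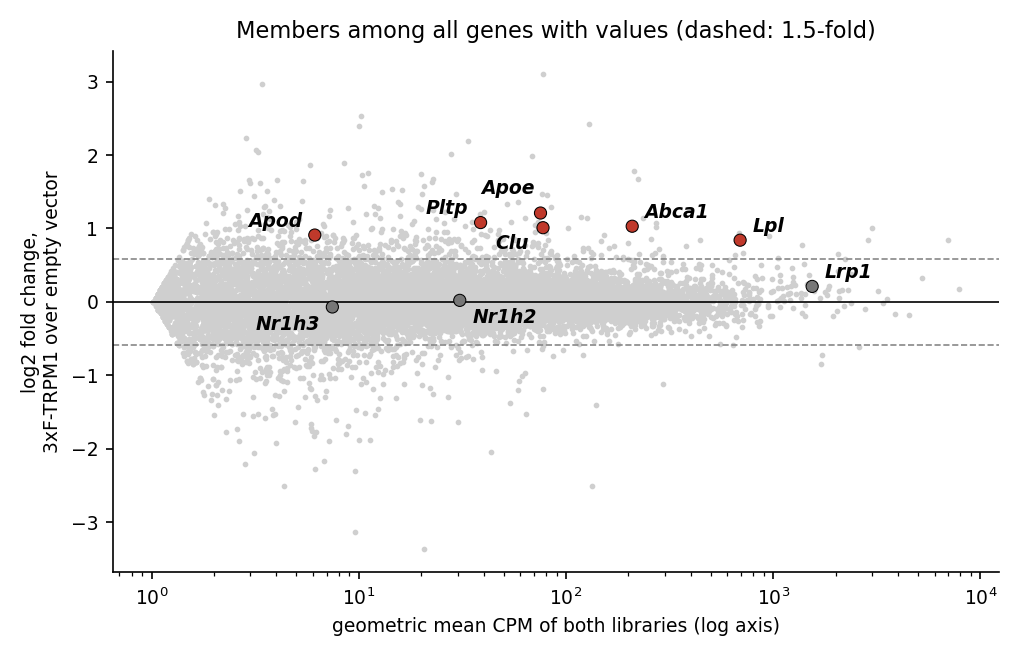
Log2 fold change, 3xF-TRPM1 over empty vector, against the geometric mean CPM of both libraries (log axis) for all 13281 genes (grey), with the members named. Members called higher are red and the others dark grey, and dashed lines mark 1.5-fold. The red points lie in the upper part of the cloud, from Apod at low CPM to Lpl at high CPM, with other genes above them. Nr1h2 and Nr1h3 lie near 0.

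The nearest genes with values on both sides of each called member were then examined, 2 on each side and 24 in all. Their median log2 fold change was 0.02, with a range of -0.83 to 0.83, and 2 were called higher, 1 lower and 21 neither. Over all genes, 3.91% were called higher and 3.07% lower. Around Apoe, the mitochondrial import gene Tomm40, 2124 bases away, had a log2 fold change of -0.41, Clptm1 -0.01, Relb -0.09 and Nectin2 0.12. The genes around Abca1 (Smc2, Nipsnap3b, 4930412L05Rik and Slc44a1) lay between -0.05 and 0.31, those around Pltp (Zswim1, Ctsa, Pcif1 and Zfp335) between -0.10 and 0.23, and those around Apod (Ppp1r2, Gm49767, Dlg1 and Pigz) between -0.18 and 0.18. Clu lay between Scara3, which was lower at -0.83, and Ephx2, which was higher at 0.72, both of few reads, with Ccdc25 at -0.00 and Ptk2b at -0.08 further out. Beside Lpl, Csgalnact1 was higher at 0.83, with 6.46 CPM in 3xF-TRPM1 cells and 3.41 CPM in empty vector cells, while Lzts1 had 0.55, Atp6v1b2 0.17 and Ints10 0.16.

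**Figure D4:**
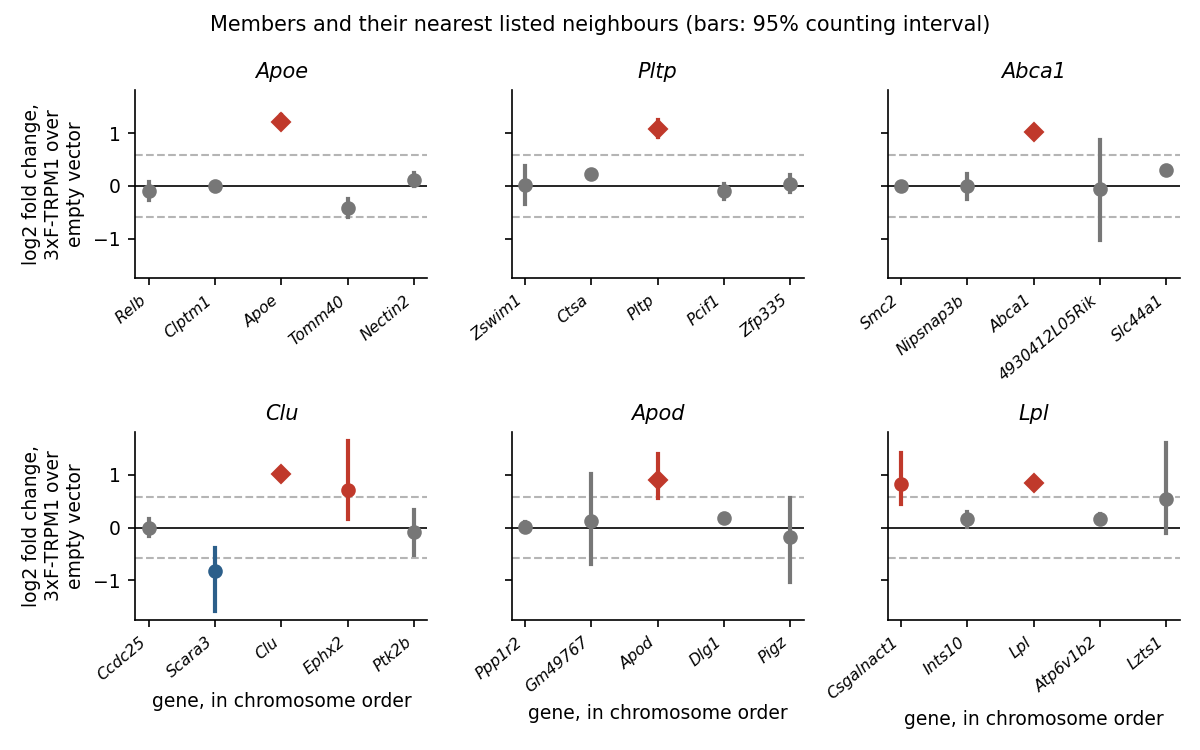
Log2 fold change, 3xF-TRPM1 over empty vector, of each called member (diamond) and of the 2 genes with values on either side in chromosome order (circles), with 95% counting intervals (bars) and 1.5-fold marked by dashed lines. Red is higher, blue lower and grey neither. Of the 24 flanking genes 21 are neither, with Scara3, Ephx2 and Csgalnact1 as the exceptions.

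Genes with related roles were collected in 7 lists of 139 genes, of which 95 had values. Of these, 11 were called higher, 3 lower and 81 neither, with Mylip, which stands in more than 1 list, counted once. The shares over all genes were 3.91% higher and 3.07% lower. Because the lists were chosen with earlier results known, nothing is read from these counts. The members' fold changes were set beside these lists.

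Among other apolipoproteins and apolipoprotein-like genes, 12 of 27 had values, with a median log2 fold change of -0.055. Apob, the structural protein of low density and very low density lipoproteins, differed in the other direction from Apoe, Clu and Apod. It was lower, with 32.9 CPM in 3xF-TRPM1 cells and 86.5 CPM in empty vector cells and a log2 fold change of -1.38 [-1.53, -1.25]. The mouse apolipoprotein L gene Apol9b, with 67.3 CPM in 3xF-TRPM1 cells and 36.8 CPM in empty vector cells (0.86), was higher. So was Apol9a, with 99.2 CPM in 3xF-TRPM1 cells and 60.8 CPM in empty vector cells (0.70). Both are near-identical copies whose reads the counting could split, so they are uncertain as separate values. Apobr, a receptor for Apob-containing particles, had a log2 fold change of -0.53, the mitochondrial gene Apool -0.45 and Apol8 0.44, and these were neither.

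Of 24 lipoprotein receptors and their helpers beside Lrp1, 17 had values (median 0.22), with 1 higher and 2 lower. Vldlr, a receptor for Apoe-bearing particles and reelin, was lower, with 27.0 CPM in 3xF-TRPM1 cells and 46.7 CPM in empty vector cells (-0.78 [-0.96, -0.62]). So was Lrp11, which had 8.05 CPM in 3xF-TRPM1 cells and 14.6 CPM in empty vector cells (-0.82). Lrp4, a receptor of synapses and bone, was higher, with 37.1 CPM in 3xF-TRPM1 cells and 20.9 CPM in empty vector cells (0.81). The Wnt coreceptor Lrp5 had 0.47, the ubiquitin ligase gene Mylip 0.46 and the endocytic adaptor Dab2 0.40, all neither. Lrpap1, the chaperone of Lrp1, had a log2 fold change of 0.23, close to the 0.21 of Lrp1 itself.

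Of 20 other transporters of the ABCA and ABCG families, 7 had values, with a median of 0.31. Abca8b had 36.0 CPM in 3xF-TRPM1 cells and 18.4 CPM in empty vector cells (0.95), and Abca9 had 27.4 CPM in 3xF-TRPM1 cells and 15.1 CPM in empty vector cells (0.84), so both were higher, as was Abca1. The other transporters were neither, among them the endosomal Abca2 (-0.55), the exporter Abcg2 (0.49) and Abca7 (0.31).

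The partners of the liver X receptors and related nuclear receptors had values for 16 of 17 genes, with a median of 0.045 and 3 higher. Of the retinoid X receptors, Rxrg was not analysed here. Rxra had 49.7 CPM in 3xF-TRPM1 cells and 46.7 CPM in empty vector cells (0.09), and Rxrb had 47.9 CPM in 3xF-TRPM1 cells and 49.3 CPM in empty vector cells (-0.04), both neither. Pparg, the nuclear receptor of fat cells that also acts upstream of Nr1h3 in macrophages, was higher, with 7.43 CPM in 3xF-TRPM1 cells and 3.35 CPM in empty vector cells (1.04). Its coactivator Ppargc1a had 37.9 CPM in 3xF-TRPM1 cells and 17.7 CPM in empty vector cells (1.08), and Nr1h4, the bile acid receptor, had 12.9 CPM in 3xF-TRPM1 cells and 8.25 CPM in empty vector cells (0.62), which total-read scaling moved under 1.5-fold. The corepressors Nrip1 (0.31) and Ncor1 (-0.24) and the coactivator Ncoa3 (0.22) were neither.

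Of 16 other known targets of the liver X receptors, 9 had values, and 0 were called higher or lower, with a range of -0.36 to 0.51 and a median of 0.045. Srebf1, a lipogenic target, had 92.9 CPM in 3xF-TRPM1 cells and 90.0 CPM in empty vector cells (0.05). Smpdl3a, a phosphodiesterase, had 0.51, Mylip 0.46 and the small GTPase gene Arl4c -0.36. Of the 9, 3 had intervals above 0, among them Smpdl3a [0.26, 0.80] and Mylip [0.33, 0.60]. In 3 the interval lay below 0, as for Arl4c [-0.47, -0.27], and in 3 it included 0, as for Srebf1 [-0.06, 0.15]. Abca1, Apoe, Pltp and Lpl, targets that were called higher, were listed with their values known. Activity of the liver X receptors was not tested.

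Genes that fold, anchor or inhibit Lpl or handle its products had values for 14 of 19, with 0 called and a median of 0.10. Lmf1 and Sel1l, which help Lpl to fold, had log2 fold changes of -0.25 and 0.06, and Angptl4, its inhibitor, had -0.12. Lcat, which esterifies cholesterol on particles, had 0.56, and the fatty acid binding protein genes Fabp5 and Fabp3 had -0.47 and -0.46.

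For sterol handling inside the cell, 21 of 22 genes had values, with a median of 0.098 and 3 higher. Ch25h, a cholesterol hydroxylase whose product is an oxysterol, had a larger fold change than any member. It stood at 25.1 CPM in 3xF-TRPM1 cells and 8.31 CPM in empty vector cells, with a log2 fold change of 1.54 [1.32, 1.88]. Lipa, the lysosomal acid lipase, was higher, with 323 CPM in 3xF-TRPM1 cells and 208 CPM in empty vector cells (0.63), and so was Cyp39a1, an oxysterol hydroxylase, with 26.5 CPM in 3xF-TRPM1 cells and 17.4 CPM in empty vector cells (0.59), a call that total-read scaling and a pseudocount of 1 CPM ended. Gramd1c (-0.53), Soat2 (-0.45) and Cyp7b1 (0.41) were neither.

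**Figure D5:**
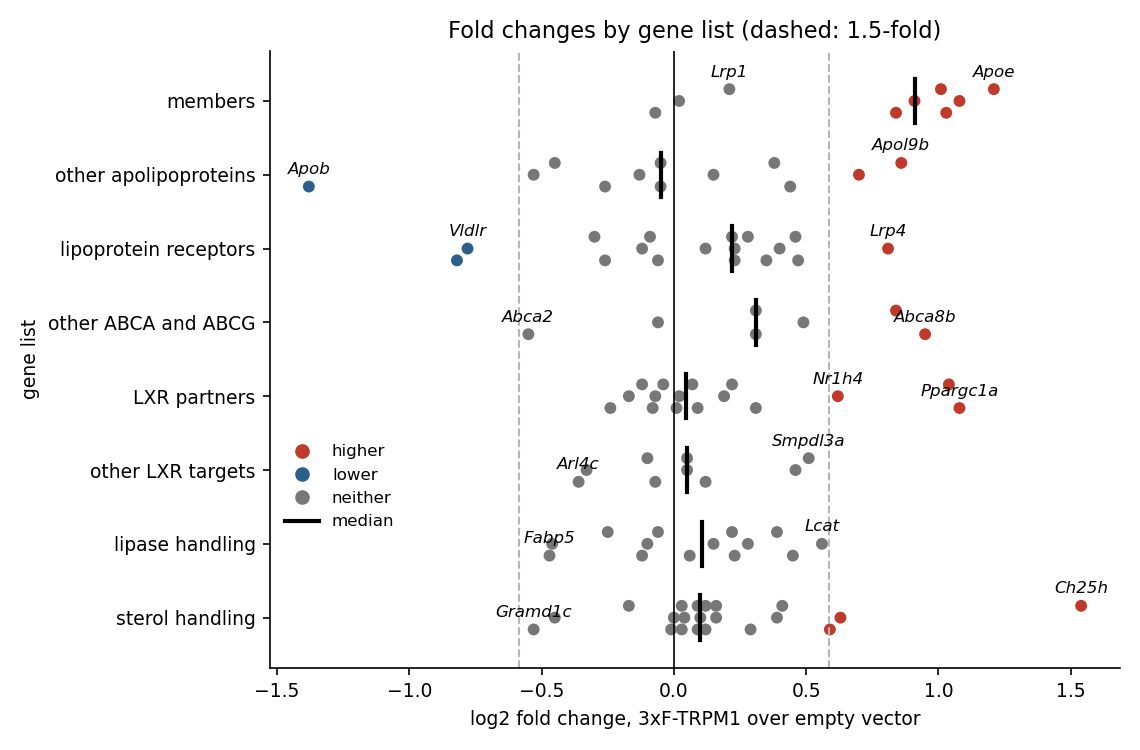
Log2 fold change, 3xF-TRPM1 over empty vector, of each gene with values in the members and the 7 related lists (points, red higher, blue lower, grey neither), with the median of each list (black bar) and 1.5-fold (dashed lines). The members have a median of 0.91, and the medians of the related lists lie between -0.055 and 0.31.

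Markers of the cell types that express these genes most were read beside them. Of 12 cone markers 2 had values, Thrb and Gnat2, with a sum of 13.7 CPM in 3xF-TRPM1 cells and 11.8 CPM in empty vector cells, and the cone opsins were not analysed here. Of 8 markers shared by photoreceptors 3 had values (Otx2, Rom1 and Rdh12), summing to 85.7 CPM in 3xF-TRPM1 cells and 62.5 CPM in empty vector cells, with Rdh12 higher. The labelled photoreceptor identity thus rested on few transcripts in this table. Fibroblast markers were far more abundant, at 16153 CPM summed in 3xF-TRPM1 cells and 9046 CPM in empty vector cells over 9 of 10 genes, led by Postn (9328 CPM in 3xF-TRPM1 cells, 5193 CPM in empty vector cells), Col1a2, Col1a1 and Col3a1, with 8 called higher and a median log2 fold change of 0.84. Any link between these markers and the values of the members was not tested.

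Mueller glia and astrocyte markers, of the cells that make much Apoe and Clu, had values for 6 of 12 and summed to 1914 CPM in 3xF-TRPM1 cells and 1541 CPM in empty vector cells, with a median of 0.38. Slc1a3 (819 CPM in 3xF-TRPM1 cells, 527 CPM in empty vector cells) and Slc1a2 were higher (Slc1a2 not with total-read scaling). Sox9 (0.47), Dkk3 (0.28), Vim (0.00) and Glul (-0.14) were neither. Slc1a3, Vim and Dkk3 made up most of the sum, and Rlbp1, Gfap, Aqp4, Kcnj10, S100b and Aldh1l1 were not analysed here. Macrophage and leukocyte markers went the other way. The 2 of 15 with values, Cd14 and Cd68, were both lower (Cd68 not with a pseudocount of 1 CPM) and summed to 9.07 CPM in 3xF-TRPM1 cells and 15.9 CPM in empty vector cells. Of 8 adipocyte markers, Pparg and Fabp4 had values (10.5 CPM summed in 3xF-TRPM1 cells, 5.50 CPM in empty vector cells). Retinal pigment epithelium markers (Mitf and Pmel, 2 of 8) summed to 29.3 CPM in 3xF-TRPM1 cells and 24.3 CPM in empty vector cells, and the endothelial marker Kdr, 1 of 6, had 2.61 CPM in 3xF-TRPM1 cells and 2.09 CPM in empty vector cells. The part of a shift between cell states or cell types in the values of Apoe, Clu, Apod, Abca1, Pltp and Lpl was not tested, and more cells with a transcript cannot be told apart from more of it per cell in these bulk libraries.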

How the data were processed

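RNA from 661W cells expressing 3xF-TRPM1 or carrying the empty vector, 1 library each, was prepared with the KAPA mRNA HyperPrep kit. Per the submitters' processing notes, HISAT2 2.1.0 (alignment to GRCm38) and featureCounts 2.0.0 (counting) were run by the authors, who also used edgeR 3.28.1 and a package named DESeq 1.40.0. Not given in the sources used here are annotation release and strand setting. The authors deposited CPM values for 13281 genes, the lowest 1.02 CPM in both libraries (18 reads in 3xF-TRPM1 and 17 in empty vector). Genes under about 1 CPM in either library thus have no value, and 2 further columns repeating the CPM were not used. The authors' fold change, p-value and gene set columns were not used.

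Dividing by the step of each library (0.0567 CPM in 3xF-TRPM1, 0.0598 CPM in empty vector) gave whole reads within 0.01 of a step for 100% of values in both. Listed genes held 17869838 reads in 3xF-TRPM1 and 16404444 in empty vector. These reads gave counting intervals and scaling alternatives, and no count test was run. Requiring a mean CPM of 1 or more removed 0 genes. Named genes were every member, of each related list those called and up to 3 more with the largest change, and of each marker list up to 4 by level. Tomm40 and the other flanking genes and Rxra, Rxrb, Srebf1, Lrpap1, Lmf1, Sel1l, Angptl4, Slc1a2 and Glul were added after their values were seen. Results for 1 gene of a related list are not reported here, and it was left out of that list. Members and lists were chosen with earlier results of these data known. Positions are from GENCODE M21 on GRCm38 (13275 identifiers matched). No value checks the labels, because the added gene is human and reads were aligned to the mouse genome. Mouse Trpm1 was not analysed here. Alternatives were other scalings, pseudocounts, filters and a 2-fold threshold. Scripts ran under Python 3.11.15 with scipy 1.17.1, matplotlib 3.10.9, pandas 2.3.3 and numpy 2.4.6.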

Additional observations from a re-analysis of the deposited data

How the results depend on the processing

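Of 54 member fold changes under 6 alternatives (median-of-ratios scaling, total reads of the listed genes, pseudocounts of 0.1 and 1, a minimum mean of 5 CPM, no filter), 53 stayed within their counting interval. The exception was Lrp1, at 0.16 with total reads as scaling. The minimum mean of 5 CPM and the setting with no filter could not change a member's fold change. Their values equal the main ones by design and add nothing to this count. The log2 fold change ranged from 1.17 to 1.22 for Apoe, 1.03 to 1.09 for Pltp, 0.98 to 1.03 for Abca1, 0.96 to 1.02 for Clu, 0.84 to 0.97 for Apod and 0.79 to 0.84 for Lpl. That of Nr1h2 ran from -0.03 to 0.02 and that of Nr1h3 from -0.12 to -0.07, so Nr1h2 has no fixed sign. A 2-fold threshold left 4 members higher, with Apod and Lpl under it, and 115 genes higher and 117 lower. A mean of at least 5 CPM left 351 genes higher and 217 lower, since fewer genes enter, and moved the median of the shared photoreceptor markers to 0.079. With total reads as scaling, 442 genes were higher and 480 lower, the median of all genes was -0.036 and that of the fibroblast markers 0.80. There Abca2 became lower, and Nr1h4, Slc1a2 and Cyp39a1 were no longer called, and with a pseudocount of 1 Cyp39a1 and Cd68 were not. The search of the liver X receptor element with up to 3 mismatches was chosen after seeing the data. No paired analysis was possible because each group has 1 library. Depth limits Apod and Nr1h3 most, and spread between cultures cannot be estimated.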
